A study of Mus musculus with 4 samples.

Results

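The 10 genes described here encode surface and secreted proteins through which myeloid cells restrain or shape T cell responses. They are the PD-1 ligands Cd274 and Pdcd1lg2, the B7 ligands Cd80 and Cd86, galectin-9 (Lgals9) and its receptor TIM-3 (Havcr2), VISTA (Vsir), the adenosine-producing enzymes Entpd1 (CD39) and Nt5e (CD73), and transforming growth factor beta 1 (Tgfb1). They were chosen by name, with earlier results of these data known. Each was matched by symbol among the 55416 gene IDs of the count table. All 10 passed the filter on low counts, which left 16566 genes for testing. The RNA came from myeloid-derived suppressor cells (MDSCs), immature myeloid cells of neutrophil or monocyte type that build up in animals with tumors. They were flow-sorted from ascitic fluid 14 days after tumor transfer, and the tumor was EL4, a T cell lymphoma line of the mouse. There were 2 libraries from wild-type mice (WT) and 2 from knockouts of Sphk2, the gene for sphingosine kinase 2 (Sphk2 KO, below the knockouts), and both genotypes carried the tumor. The surface markers used for the sort are not named in the labels, nor are the strain, sex and age of the mice, the kind of Sphk2 allele or the number of animals behind a library. The p-values therefore measure only the spread between these libraries, which may be technical.

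PD-L1 and PD-L2 bind PD-1 on T cells and reduce signaling through the T cell receptor. CD80 and CD86 can either costimulate through CD28 or inhibit through CTLA-4. VISTA is a B7-related protein abundant on myeloid cells, and galectin-9 is a secreted lectin that binds TIM-3 among other glycoproteins. CD39 converts extracellular ATP and ADP to AMP, CD73 converts AMP to adenosine, and adenosine dampens T cells through its receptors. TGF-beta 1 is made as a latent complex that must be activated outside the cell. In tumors such genes are among the means by which MDSCs suppress T cells, and the comparison between genotypes asks whether their transcripts depend on sphingosine kinase 2.

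The libraries held 14087613 to 24685576 counts. As a check of the labels, Sphk2 counts were 1033 and 743 in the WT pair and 57 and 100 in the knockout pair. The neutrophil-like MDSC markers (12 genes, among them Itgam, Ly6g and S100a8) were all detected, and their summed level was 22846 and 29381 counts-per-million (CPM, on TMM-scaled library sizes) in WT against 35450 and 40817 CPM in the knockouts. In 8 of the 12 both knockout libraries lay above both WT libraries (20.4% of all tested genes), and all 12 log2 fold changes were positive (median 0.52), with 0 called. The summed level of 17 monocyte and macrophage markers was 4643 and 3116 CPM in WT against 4292 and 2992 CPM in the knockouts. Of these 16 were tested, and 11 of their log2 fold changes were negative (median -0.13), with 0 called. In 3 of the 16 both knockout libraries lay below both WT libraries (22.7% of all tested genes). Other cell types left transcripts too. The 13 B cell and plasma cell markers summed to 1845 and 1615 CPM in WT against 1723 and 850 CPM in the knockouts, and the 19 T cell markers, which EL4 cells can share, to 111 and 82.6 CPM in WT against 55.0 and 45.4 CPM in the knockouts. The 8 erythroid markers summed to 65.6 and 195 CPM in WT against 333 and 582 CPM in the knockouts. No list had a marker at 0 counts in all 4 libraries. In bulk RNA, fewer cells of a type and less RNA per cell cannot be told apart.

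**Figure D1:**
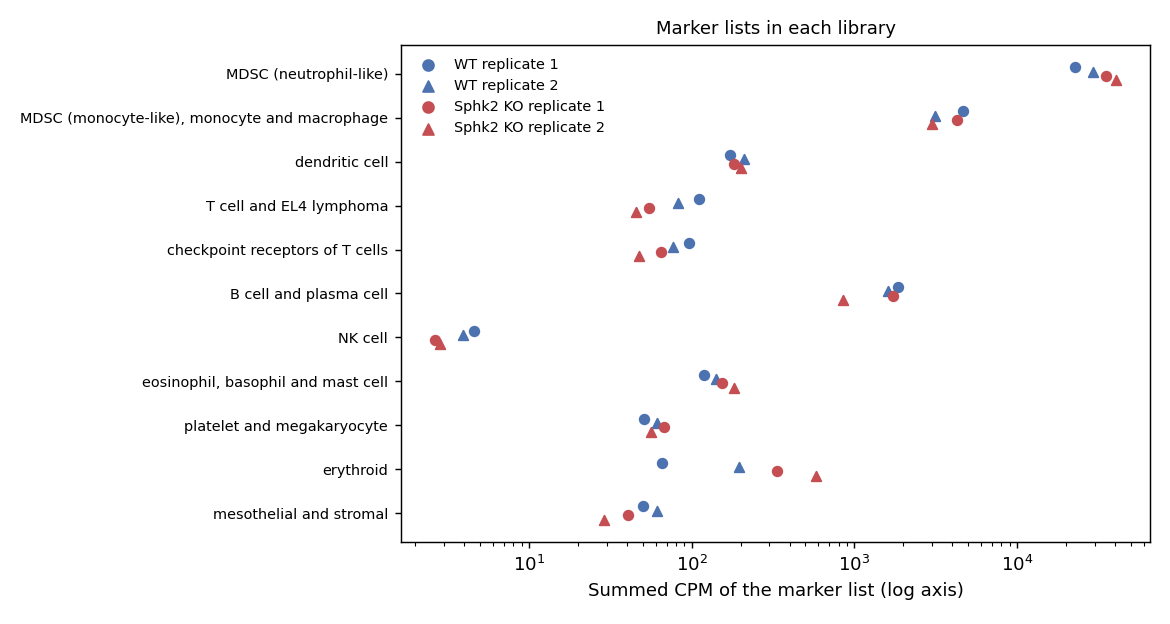
Summed CPM (log axis) of each marker list in the 4 libraries, with circles for replicate 1, triangles for replicate 2, blue for WT and red for Sphk2 KO. The neutrophil-like list is highest in every library and lies between 22846 and 40817 CPM, with both knockout libraries above both WT libraries, while the T cell list lies lower in both knockout libraries.

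The 10 transcripts covered a wide range of levels. Divided by the exon length of each gene, the mean level over the 4 libraries was highest for Vsir, at 163 CPM per kb, and lowest for Pdcd1lg2, at 0.654 CPM per kb. Between them came Entpd1 (98.3 CPM per kb), Lgals9 (47.4), Tgfb1 (35.4), Cd80 (11.99), Cd274 (10.97), Cd86 (7.32), Havcr2 (2.52) and Nt5e (1.57). Of the 9 neighboring pairs in this order, Lgals9 and Tgfb1, and Cd80 and Cd274, had ranges over the 4 libraries that overlapped. The other 7 pairs did not overlap, although the gap between Cd274 (lowest library 8.22 CPM per kb) and Cd86 (highest library 8.15 CPM per kb) was small. Measured as CPM, 155 of the 16566 tested genes had a higher mean than Vsir. The 2 steps of adenosine production were far apart, as the level of Entpd1 per length was 51.4 to 73.5 times that of Nt5e within a library. Of the PD-1 ligands, Cd274 was 12.7 to 21.0 times as abundant per length as Pdcd1lg2.

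**Figure D2:**
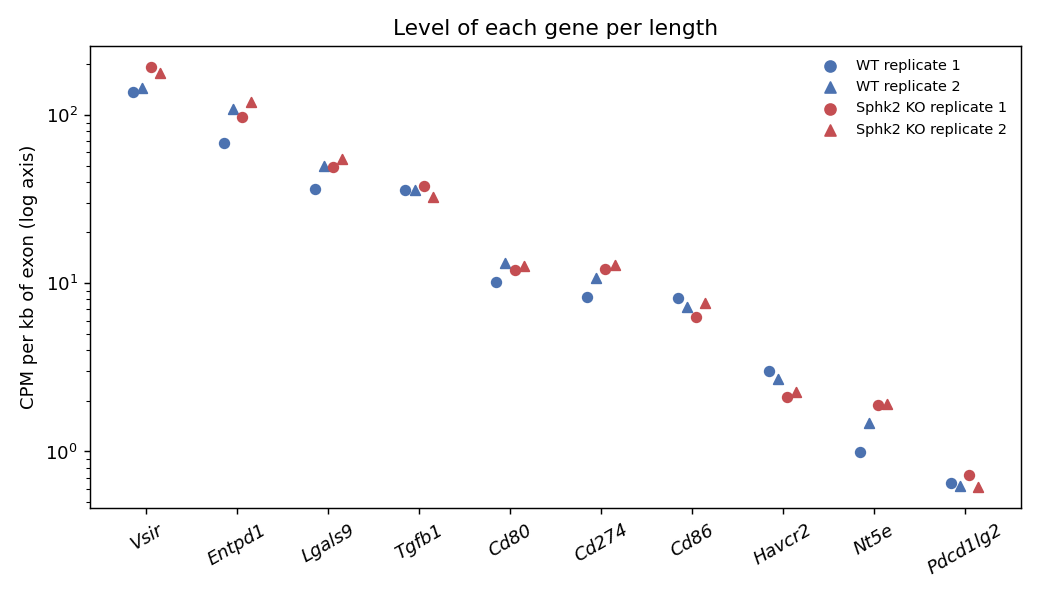
Level of each gene as CPM per kb of exon (log axis), with 1 point per library, circles for replicate 1, triangles for replicate 2, blue for WT and red for Sphk2 KO. The genes run from Vsir at 163 CPM per kb to Pdcd1lg2 at 0.654 CPM per kb, and differences between genes are mostly larger than those between genotypes.

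None of the 10 genes was called between genotypes by edgeR (0 of 10 at an adjusted p under 0.05, against 0.109% of all tested genes, 18 of 16566). DESeq2, which called 0.476% of the genes it tested, and limma-voom also called 0 of the 10. At an unadjusted p under 0.05, edgeR gave 1 of the 10, Nt5e, against 10.5% of all tested genes (3.06% higher and 7.47% lower in the knockouts). The median log2 fold change (Sphk2 KO minus WT) was 0.17 over the 10 genes and -0.00075 over all tested genes, with 7 positive and 3 negative values. The median size of a log2 fold change regardless of sign was 0.28 in the 10 genes and 0.25 over all tested genes. In 4 of the 10 genes both knockout libraries lay outside the WT range, a share near the 43.2% of all tested genes. Both knockout libraries lay above both WT libraries in Cd274, Vsir and Nt5e (20.4% of all tested genes) and below them in Havcr2 (22.7% of all tested genes). With 1 library left out, groups of 1 and 2 are more often apart, and the count became 5 (WT replicate 1 left out, 65.3% of all tested genes), 8 (WT replicate 2, 81.4%), 8 (Sphk2 KO replicate 1, 76.2%) and 7 (Sphk2 KO replicate 2, 63.1%).

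**Figure D3:**
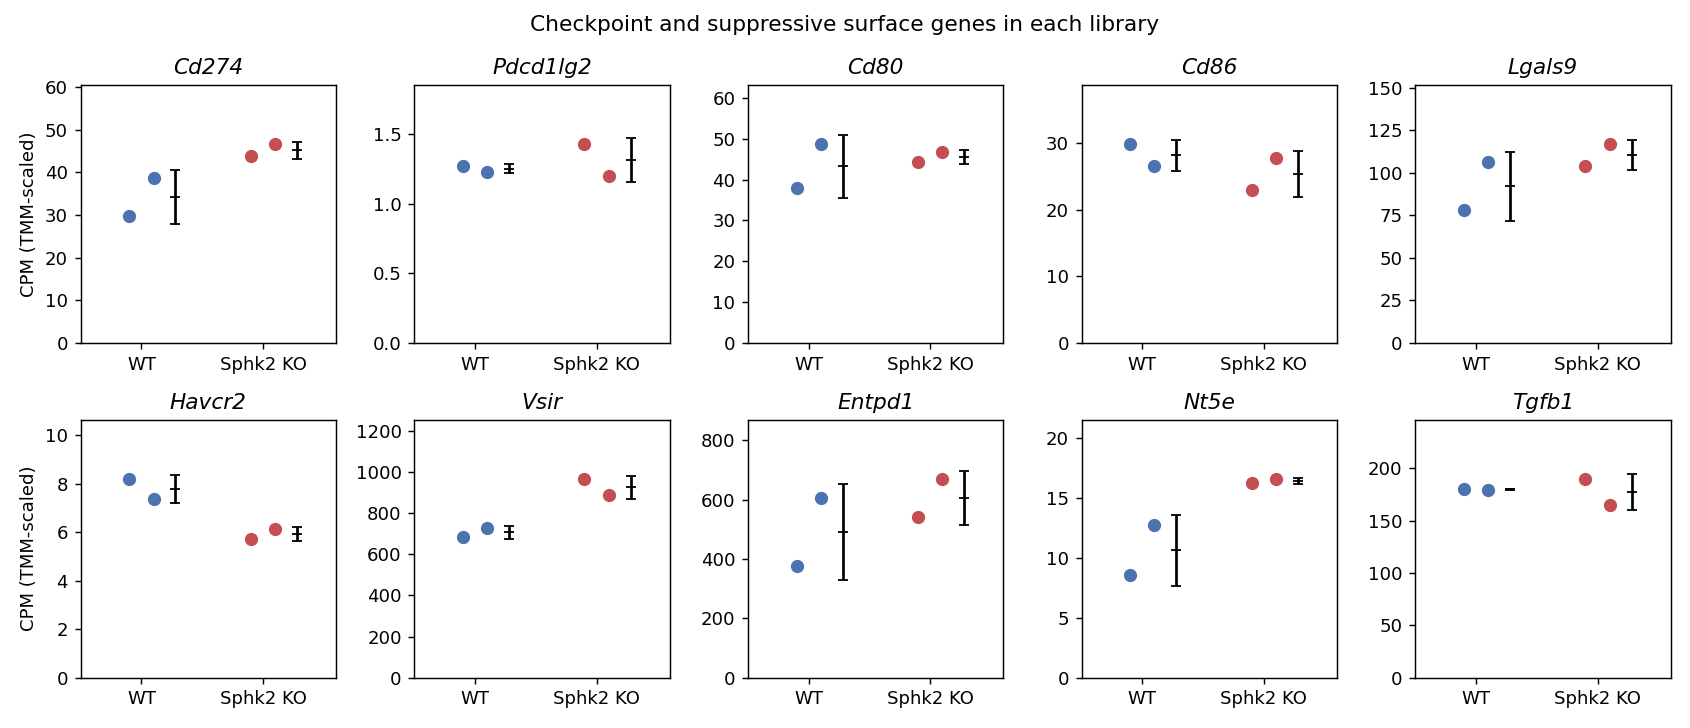
CPM of each gene in each library (linear axes from 0), with WT in blue, Sphk2 KO in red, replicate 1 on the left of each pair, and the mean ± SD of the 2 libraries in black. Cd274, Vsir and Nt5e have both knockout libraries above both WT libraries, Havcr2 has them below, and the other 6 genes overlap.

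Cd274 (ENSMUSG00000016496, chromosome 19), which encodes PD-L1, had 561 and 537 counts in WT against 614 and 1047 in the knockouts. As CPM these were 29.8 and 38.8 in WT and 43.8 and 46.6 in Sphk2 KO. The groups did not overlap, but WT replicate 2 lay nearer to Sphk2 KO replicate 1 than to WT replicate 1. The means were 34.3 ± 6.37 and 45.2 ± 1.96 CPM (SD, n = 2 each), a log2 fold change of 0.40 with a standard error (SE) of 0.18 (edgeR adjusted p = 0.473). The 95% interval of the fold, 0.996 to 1.75, just included 1. With WT replicate 1 left out the log2 fold change was 0.21, and with WT replicate 2 left out it was 0.62. The replicates of WT alone differed by 0.38 on the log2 scale. The summed neutrophil-like markers given above were also higher in both knockout libraries, and their part in the Cd274 values was not tested. Exons of Cd274 overlap AC119228.1 on the opposite strand over 14.1% of their bases in the annotation at hand. AC119228.1 had 19.2 and 20.1 CPM in WT against 28.7 and 18.6 CPM in the knockouts. Without a stated strand setting, reads in the overlap cannot be told apart.

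Pdcd1lg2 (ENSMUSG00000016498, chromosome 19), which encodes PD-L2, had 24 and 17 counts in WT against 20 and 27 in the knockouts. Scaled to CPM these were 1.27 and 1.23 in WT and 1.43 and 1.20 in the knockouts. The exact 95% Poisson intervals, scaled alike, were 0.817 to 1.90 and 0.716 to 1.97 CPM in WT, and 0.872 to 2.20 and 0.792 to 1.75 CPM in the knockouts. Each interval, which covers counting error only, held the values of all 4 libraries, so no difference beyond counting error was seen. The 95% interval of the fold from edgeR was 0.555 to 1.95. The log2 fold change was 0.06 (SE 0.39), the widest error among the 10 genes, and its sign was negative with library size alone as the scaling (-0.12) and without Sphk2 KO replicate 1 (-0.066). In gene order on chromosome 19, the tested gene before Cd274 was Plgrkt (log2 fold change 0.07, SE 0.16), a plasminogen receptor gene. AC119228.1 (0.26, SE 0.23) was the only tested gene between the PD-1 ligands, and neither was called by edgeR (adjusted p = 0.885 and 0.695).

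The promoters of the genes with higher values in both knockout libraries, Cd274, Vsir and Nt5e, are shown with that of Lgals9, the only one of the 9 genes with a window in the table whose window held a searched motif. Each window runs from 250 bases before to 50 after the annotated start (RefSeq, GRCm38.p6, not the GRCm39 build of the counts), 5′ to 3′ on the strand of the gene, and capitals mark matches to the core of the interferon-stimulated response element (GAAA, any 2 bases and GAAA, or the reverse complement TTTC, any 2 bases and TTTC). The windows are chr19:29367188-29367487 (Cd274, plus strand), chr10:60346601-60346900 (Vsir, plus strand), chr9:88327359-88327658 (Nt5e, plus strand) and chr11:78984875-78985174 (Lgals9, minus strand).
Cd274: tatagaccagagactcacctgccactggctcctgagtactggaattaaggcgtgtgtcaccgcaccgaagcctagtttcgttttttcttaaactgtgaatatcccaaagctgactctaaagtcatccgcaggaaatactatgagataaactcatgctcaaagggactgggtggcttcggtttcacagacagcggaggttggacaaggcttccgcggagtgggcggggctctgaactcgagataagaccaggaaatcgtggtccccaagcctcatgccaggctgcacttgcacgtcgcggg
Vsir: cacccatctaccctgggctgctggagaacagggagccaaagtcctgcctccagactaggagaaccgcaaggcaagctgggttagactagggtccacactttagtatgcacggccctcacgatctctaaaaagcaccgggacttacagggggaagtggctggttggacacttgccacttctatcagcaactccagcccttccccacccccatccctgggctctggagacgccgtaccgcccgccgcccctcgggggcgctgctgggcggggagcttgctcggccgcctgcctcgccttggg
Nt5e: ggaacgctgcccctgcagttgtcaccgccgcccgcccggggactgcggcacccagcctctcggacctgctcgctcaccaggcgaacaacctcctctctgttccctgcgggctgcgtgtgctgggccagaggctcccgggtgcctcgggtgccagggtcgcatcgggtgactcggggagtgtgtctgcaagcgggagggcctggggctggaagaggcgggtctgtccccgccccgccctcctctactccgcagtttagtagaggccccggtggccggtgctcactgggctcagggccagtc
Lgals9: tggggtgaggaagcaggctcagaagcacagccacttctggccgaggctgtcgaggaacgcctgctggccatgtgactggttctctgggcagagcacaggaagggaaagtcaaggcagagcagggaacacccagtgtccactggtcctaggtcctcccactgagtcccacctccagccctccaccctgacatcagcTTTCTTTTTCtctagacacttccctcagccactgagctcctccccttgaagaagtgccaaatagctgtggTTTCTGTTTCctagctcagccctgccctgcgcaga

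The table held 10 windows for 9 of the 10 genes, with 2 for Entpd1. The search used 4 motifs on both strands: the interferon-stimulated core above, TTCNNNGAA for the gamma-activated site, GGGA, any 2 bases and TTCC for NF-kB and TGACGTCA for the cyclic AMP response element. Lgals9 held 2 matches of the first, TTTCTTTTTC with its first base at -55 and TTTCTGTTTC with its first base at 16 from the start site, and the other 9 windows held none of the 4. Of all 32851 windows in the table, 3.44% held the first motif, 8.3% the second, 1.47% the third and 1.79% the fourth. The windows also differed in base composition. Nt5e had 71% G and C with 23 CpG pairs and Vsir 63.7% with 15, Lgals9 had 58% with 4 and Cd274 52.7% with 15, against medians of 52.7% and 7 over all windows. A match is a description of letters, not evidence of a bound factor.

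The B7 ligands Cd80 and Cd86 showed overlapping genotypes. Cd80 (ENSMUSG00000075122, chromosome 16) had 37.9 and 48.6 CPM in WT against 44.3 and 46.8 CPM in the knockouts, so that the knockout libraries lay between the WT libraries. Its log2 fold change of 0.08 (SE 0.17, edgeR adjusted p = 0.885) had a 95% interval of the fold of 0.803 to 1.38, and its sign was negative with library size alone (-0.085) and without WT replicate 1 (-0.11). Cd86 (ENSMUSG00000022901, chromosome 16) had 29.8 and 26.6 CPM in WT against 22.97 and 27.8 CPM in the knockouts, with the WT replicate 2 value inside the range of Sphk2 KO. Its log2 fold change was -0.15 (SE 0.18, edgeR adjusted p = 0.769), with an interval of the fold of 0.675 to 1.20, and it ran from -0.29 to -0.028 with each library left out in turn. Within a library Cd80 was 1.25 to 1.91 times as abundant per length as Cd86.

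Lgals9 (ENSMUSG00000001123, chromosome 11) had 77.9 and 106 CPM in WT against 104 and 117 CPM in the knockouts. WT replicate 1 was the low library, and WT replicate 2 lay within the range of Sphk2 KO. The means of 92.1 ± 20.1 and 110 ± 8.89 CPM (SD, n = 2 each) gave a log2 fold change of 0.26 (SE 0.18, edgeR adjusted p = 0.625), smaller than the difference of 0.45 between the WT replicates. Without WT replicate 1 it was 0.04 and without WT replicate 2 it was 0.52. Havcr2 (ENSMUSG00000020399, chromosome 11), which encodes TIM-3, had 8.18 and 7.37 CPM in WT against 5.71 and 6.14 CPM in the knockouts, from 80 to 154 counts a library. Both knockout libraries were below both WT libraries, and the log2 fold change of -0.39 (SE 0.25) was larger than the replicate differences of 0.15 and 0.10 but was not called (edgeR adjusted p = 0.601). The interval of the fold was 0.509 to 1.14. The T cell markers, which as a sum were lower in both knockout libraries, moved with Havcr2, a gene that T cells also express. In that list 13 of 17 tested genes had both knockout libraries below both WT libraries, as had 22.7% of all tested genes. Other lists differed too. Of the 13 tested B cell and plasma cell markers the same held for 10 (0 above, median log2 fold change -0.68). It held for 4 of 9 tested dendritic cell markers (1 above, median -0.43), 3 of 4 mesothelial and stromal markers and 2 of 2 NK cell markers. Among 16 tested monocyte and macrophage markers it held for 3 (0 above, median -0.13), a share below that of all tested genes. Neutrophil-like and erythroid markers went the other way, with 8 of 12 and 7 of 8 above WT in both knockout libraries. The part of T cells or of these other cells in the Havcr2 values was not tested.

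Vsir (ENSMUSG00000020101, chromosome 10), which encodes VISTA, had 685 and 728 CPM in WT against 965 and 887 CPM in the knockouts. Both knockout libraries lay above both WT libraries. The means were 706 ± 30.4 and 926 ± 55.2 CPM (SD, n = 2 each), and the log2 fold change of 0.39 was larger than either replicate difference (0.09 in WT and 0.12 in Sphk2 KO on the log2 scale). With an SE of 0.22 it was not called (edgeR adjusted p = 0.549, 95% interval of the fold 0.928 to 1.85). It stayed between 0.32 and 0.46 when each library was left out in turn. The neutrophil-like markers were higher as a sum in both knockout libraries, and their part in the Vsir values was not tested.

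The adenosine enzymes differed most between WT libraries. Entpd1 (ENSMUSG00000048120, chromosome 19), which encodes CD39, had 378 and 606 CPM in WT against 540.0 and 669 CPM in the knockouts. WT replicate 1 was the low library, and WT replicate 2 lay within the range of Sphk2 KO. The log2 fold change of 0.30 (SE 0.27, edgeR adjusted p = 0.699) was smaller than the difference of 0.68 between the WT replicates, at -0.017 when WT replicate 1 was left out and 0.69 when WT replicate 2 was left out. Nt5e (ENSMUSG00000032420, chromosome 9), which encodes CD73, had 161 and 176 counts in WT against 227 and 372 in the knockouts, or 8.55 and 12.7 CPM in WT against 16.2 and 16.5 CPM in the knockouts. Both knockout libraries were above both WT libraries. The means were 10.6 ± 2.95 and 16.4 ± 0.251 CPM (SD, n = 2 each). Its log2 fold change of 0.63 (SE 0.24) was the highest of the 10 genes and its 95% interval of the fold ran from 1.05 to 2.28, yet over all tested genes it did not pass (unadjusted p = 0.0325, edgeR adjusted p = 0.440). The WT replicates differed by 0.57 on the log2 scale, and the log2 fold change was 0.35 to 0.95 with each library left out in turn. The summed neutrophil-like markers were higher in both knockout libraries, as given above, and their part in the Nt5e values was not tested.

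Tgfb1 (ENSMUSG00000002603) lies on chromosome 7, as Sphk2 does, with 258 tested genes between them. Of these 3 were called by edgeR (1.16%, against 0.109% of all tested genes). Chromosome 7 as a whole holds 15 of the 18 called genes among 1252 tested genes, which are 7.56% of all tested genes. Tgfb1 had 179.95 and 179 CPM in WT against 189 and 165 CPM in the knockouts, so that the knockout libraries lay on either side of WT. Its log2 fold change was -0.02 (SE 0.16, edgeR adjusted p = 0.970), with an interval of the fold of 0.766 to 1.27. Its level varied least among the 10 genes, with a highest library 1.15 times the lowest, against 1.94 times for Nt5e and 1.77 times for Entpd1.

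**Figure D4:**
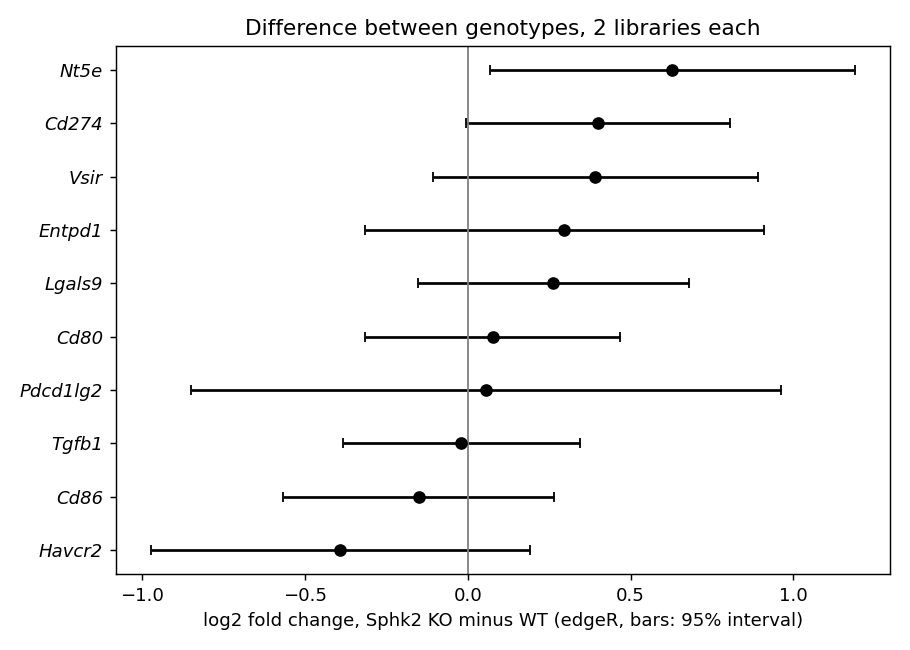
Log2 fold change (Sphk2 KO minus WT) of each gene from edgeR, with bars for the 95% interval over 2 libraries a genotype. The values run from -0.39 (Havcr2) to 0.63 (Nt5e), and the interval of Nt5e alone leaves out 0 without any adjustment for the number of genes tested.

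The patterns of 3 of the genes over the 4 libraries were compared with those of 8841 named genes whose mean was 5 CPM or more, by the root mean square difference of centered log2 CPM. The nearest to Cd274 were Ncoa1 (0.011), a nuclear receptor coactivator, Pfkfb4 (0.013), a regulator of glycolysis, and Lmo4 (0.013). For Entpd1 they were Csf3r (0.0096), the receptor of granulocyte colony-stimulating factor and a neutrophil marker, Rnf11 (0.016) and Iffo2 (0.020). For Tgfb1 they were Elof1 (0.0092), Zfp395 (0.011) and Cog8 (0.012). With 4 libraries many genes lie this near: 668, 346 and 1296 genes were within 0.1 of Cd274, Entpd1 and Tgfb1.

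The wider pathways were read through 6 lists with 181 further genes between them, of which 178 matched a symbol of the table (Hhla2, Cop9s5 and Vsig3 did not) and 145 were tested, and edgeR called 0 of these in either direction (over all tested genes 0.0423% were called higher and 0.0664% lower in Sphk2 KO). At an unadjusted p under 0.05 there were 22 of the 145, or 15.2%, against 10.5% of all tested genes. DESeq2 called 1, P2ry2, and limma-voom 0. Medians of the log2 fold change lay between -0.09 and 0.14 in all 6 lists, against -0.00075 over all tested genes.

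**Figure D5:**
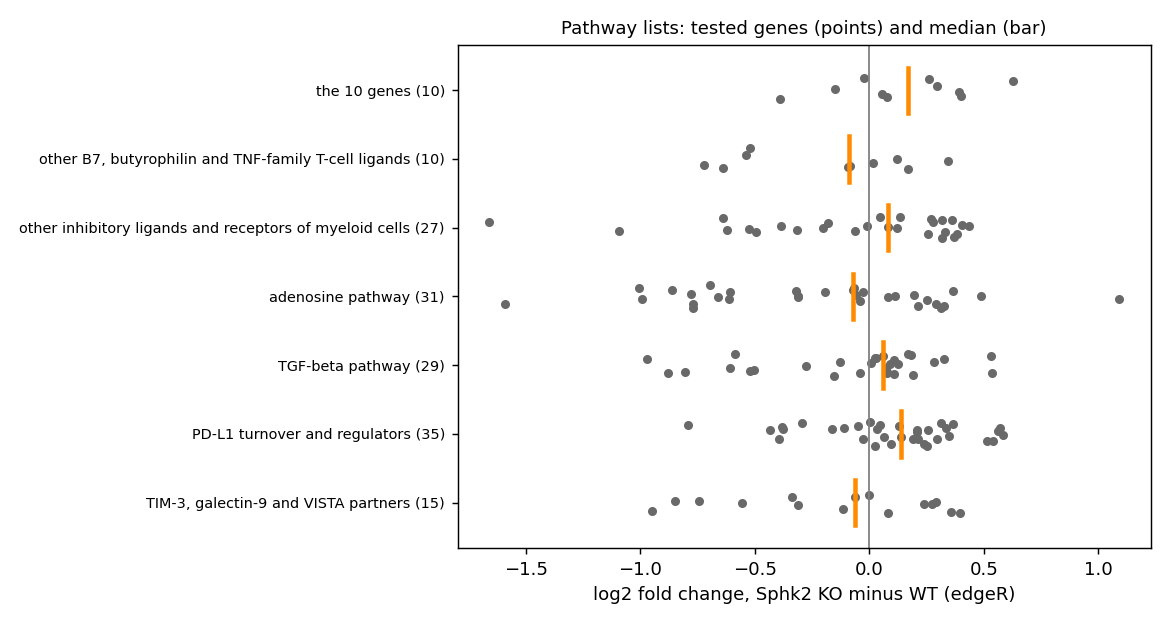
Log2 fold change (Sphk2 KO minus WT) of every tested gene (points) in the 10 genes and the 6 pathway lists, with the number of tested genes in parentheses and the median of each list as a bar. The medians lie between -0.09 and 0.17, and P2ry2, at 1.09 in the adenosine list, lies farthest to the right.

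Regulators and turnover factors of PD-L1 had 25 positive and 10 negative values among 35 tested genes and a median of 0.14. Both knockout libraries were above WT in 13 (20.4% of all tested genes) and below in 3 (22.7%). Irf1, an interferon-induced transcription factor that activates Cd274, had 218 and 302 CPM in WT against 400.3 and 371 CPM in the knockouts (log2 fold change 0.57, SE 0.21, edgeR adjusted p = 0.425). Stat2 (0.56) and Irf9 (0.51), interferon signaling genes chosen after their values were seen, were not called either (edgeR adjusted p = 0.436 and 0.446). The part of these 3 genes in the Cd274 values was not tested. Cmtm6, also chosen after its values were seen, stabilizes PD-L1 protein at the surface and had 355 and 506 CPM in WT against 509.7 and 558 CPM in the knockouts (0.31, SE 0.23, edgeR adjusted p = 0.643). Stat3, the most abundant member, gave 0.21 (SE 0.25), and Myc, the lowest, -0.79 (SE 0.34, edgeR adjusted p = 0.472).

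Other B7 and TNF-family ligands had 10 tested genes, 4 positive and 6 negative, with a median of -0.09. In 5 of them both knockout libraries were below WT (22.7% of all tested genes). Tnfsf14, the ligand LIGHT and the most abundant member as CPM, had 80.1 and 159 CPM in WT against 124 and 180 CPM in the knockouts (log2 fold change 0.34, SE 0.31), with overlapping groups. Cd48, a ligand of CD2-family receptors, had 21.6 and 18.6 CPM in WT against 14.4 and 10.1 CPM in the knockouts (-0.72, SE 0.23, edgeR adjusted p = 0.412). The genes for B7-H4 (Vtcn1) and CD70 (Cd70) had 0 counts in all 4 libraries. Among 27 tested inhibitory ligands and receptors of myeloid cells the median was 0.08, with 15 positive values. Both knockout libraries were above WT in 6 (20.4% of all tested genes) and below in 6 (22.7%). Lilrb4a, an inhibitory immunoglobulin-like receptor, was the most abundant at 785 and 1340 CPM in WT against 1150 and 1413 CPM in the knockouts (0.27, SE 0.31). Sirpa, the receptor of CD47, had 531 and 728 CPM in WT against 851 and 851 CPM in the knockouts (0.43, SE 0.24, edgeR adjusted p = 0.544). Lgals1, which encodes galectin-1, had 22.8 and 15.2 CPM in WT against 12.4 and 5.74 CPM in the knockouts (-1.09, SE 0.37, edgeR adjusted p = 0.424).

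In the adenosine and nucleotide list 11 of 31 tested genes had positive values, and the median was -0.07. Both knockout libraries were below WT in 13 (22.7% of all tested genes) and above in 6 (20.4%). P2ry2, a receptor for extracellular ATP and UTP on chromosome 7, had 51.5 and 80.4 CPM in WT against 135 and 145 CPM in the knockouts. Its log2 fold change of 1.09 (SE 0.21) missed the threshold with edgeR (adjusted p = 0.198) and passed with DESeq2 (adjusted p = 0.00605). Ahcy, the hydrolase that frees adenosine from S-adenosylhomocysteine, had 11.2 and 7.88 CPM in WT against 5.56 and 4.14 CPM in the knockouts (-0.99, SE 0.30, edgeR adjusted p = 0.401). Nt5c2, a cytosolic nucleotidase and the most abundant member as CPM, gave -0.03 (SE 0.17). The TGF-beta list had 18 positive values among 29 tested genes and a median of 0.06. Both knockout libraries were above WT in 5 (20.4% of all tested genes) and below in 6 (22.7%). Mmp9, a protease that can activate latent TGF-beta, was its most abundant member at 1532 and 2134 CPM in WT against 2421 and 2182 CPM in the knockouts (0.33, SE 0.30). Furin, the protease that cleaves the TGF-beta precursor and a gene of chromosome 7, had 443 and 606 CPM in WT against 722 and 797 CPM in the knockouts (0.53, SE 0.23, edgeR adjusted p = 0.472). Thbs1, an activator of latent TGF-beta, had 274 and 109 CPM in WT against 135 and 73.8 CPM in the knockouts (-0.88, SE 0.42, edgeR adjusted p = 0.495), with overlapping groups. Tgfbr1 and Tgfbr2, the receptor pair and chosen after their values were seen, both gave 0.11.

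Partners of TIM-3, galectin-9 and VISTA had 6 positive and 9 negative values among 15 tested genes and a median of -0.06. Both knockout libraries were above WT in 1 (20.4% of all tested genes) and below in 5 (22.7%). Cd44, a galectin-9 binding receptor and the most abundant member, had 1432 and 2291 CPM in WT against 2030.4 and 2743 CPM in the knockouts (log2 fold change 0.36, SE 0.34), with overlapping groups. Fyn, a Src-family kinase that T cells use, had 16.5 and 15.1 CPM in WT against 9.27 and 8.27 CPM in the knockouts (-0.85, SE 0.21, edgeR adjusted p = 0.372). The receptors that T cells carry for the ligands were scarce in the sorted cells. Pdcd1, the gene for PD-1, had 42 and 6 counts in WT against 3 and 3 in the knockouts, and it was below the filter on low counts. Ctla4 had 18 and 7 counts in WT against 9 and 7 in the knockouts, and Cd28 had 72 and 32 in WT and 15 and 3 in the knockouts (log2 fold change -2.52, edgeR adjusted p = 0.401).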

How the data were processed

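The authors deposited 1 table of raw, unnormalized counts for 4 poly(A) libraries (2 WT, 2 Sphk2 KO), with Ensembl gene IDs as rows. Per the labels' protocols, libraries came from 250 ng of RNA with a directional kit and paired-end sequencing. Trim Galore, STAR, featureCounts and DESeq2 with the build GRCm39 are named in the submitters' processing notes; versions, annotation release, strand setting and multi-mapping treatment remain unknown: not given in the sources used here. Symbols came from a gene name table, and 0 rows named no gene.

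The test on the counts of all genes was that of edgeR 4.0.16 under R 4.3.3 (filterByExpr, TMM, glmQLFit, glmQLFTest; genotype was the single term) with Benjamini-Hochberg adjustment over all tested genes and calls at an adjusted p under 0.05. The SE is the size of the log2 fold change divided by the square root of F. Library sizes for CPM were scaled by TMM, and log2 CPM had a prior count of 2. The chi-square per degree of freedom between replicates was 29.3 in WT and 18.9 in Sphk2 KO, above sampling noise. Such a spread may be technical and does not show that the libraries come from separate animals. Each library was entered as its own sample. With 2 libraries against 2 no exact permutation test can pass, so none was used. The fit was tested on simulated data.

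Exon lengths, gene order and overlaps came from GENCODE M21 (GRCm38) through gene IDs, and its gene coordinates are not printed. Promoter windows and their coordinates are those of RefSeq. Of the 75-base sequences of each gene's longest transcript, 0.451% in Cd274 and 0% in the other 9 occur in other genes. The 10 genes, the lists and the marker lists were chosen with earlier results of these data known. From each pathway list the text names called genes, the most abundant tested gene and those with the highest and lowest log2 fold change at a mean of at least 5 CPM; the value of 1 gene that this rule selects is not reported here. Alternatives were DESeq2 1.42.0, limma-voom (limma 3.58.1), scaling by RLE or by library size alone, omitting the count filter or making it stricter (100 counts in total and 1 CPM in 2 libraries), robust shrinkage, the replicate number as a block, and leaving out each library in turn.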

Additional observations from a re-analysis of the deposited data

How the results depend on the processing

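Of 119 log2 fold changes of the 10 genes over the alternatives, 110 kept their direction and side of the threshold and 7 changed sign. The sign changes were Tgfb1 with DESeq2 (0.0093), Pdcd1lg2 (-0.12) and Cd80 (-0.085) with library size alone, and 4 with a library left out. With each library left out, Cd80 ranged from -0.11 to 0.28, Entpd1 from -0.017 to 0.69, Pdcd1lg2 from -0.066 to 0.19 and Tgfb1 from -0.13 to 0.084. Pdcd1lg2 was below the stricter filter. Library size alone moved the median of all genes to -0.17, and relative to it Pdcd1lg2 was at 0.06 and Cd80 at 0.09. The count of called genes was 76 with DESeq2, 615 without the count filter and 54 to 1061 with a library left out. Among the pathway genes that each setting tested, calls of higher values were 1 with DESeq2 (146 tested), 1 without the filter (172 tested) and 0 to 13 with a library left out (148 to 151 tested), and calls of lower values 5 without the filter and 0 to 8 with a library left out. With a library left out, groups of 1 and 2 are more often apart. Of the 10 genes, 5 to 8 then had groups that did not overlap, against 63.1% to 81.4% of all tested genes. The cause of the other changes was not tested.

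With the replicate block, 2637 of all 16566 tested genes were called. An unadjusted edgeR p under 0.05 was then found in 28.6% of all tested genes, against 10.5% without the block. Among the called genes were 2 of the 10, Cd274 (log2 fold change 0.41, edgeR adjusted p = 0.0114) and Nt5e (0.64, edgeR adjusted p = 0.00324). Of the 145 tested pathway genes 16 were called higher and 20 lower. Same-numbered libraries deviated together from their group means (r = 0.438 across 16566 genes, which are not independent replicates). The labels do not say that the numbers mark a shared batch or day, and 2 pairs give a single such correlation, so the numbers were not taken as a pairing. At 17 to 27 counts a library, Pdcd1lg2 is limited by depth.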

Other observations

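Ratios of counts between 2 genes of the same library do not depend on how libraries are scaled. Over the 45 pairs of the 10 genes, the ratio of Cd274 to Cd80 had the smallest difference between replicates. It was 0.787 and 0.798 in WT and 0.989 and 0.996 in Sphk2 KO. The exact 95% binomial intervals, which cover counting error only, were 0.703 to 0.880 and 0.711 to 0.895 in WT and 0.883 to 1.11 and 0.914 to 1.09 in Sphk2 KO. The largest difference between replicates was 0.02 on the log2 scale, below what these intervals allow, against a difference of 0.32 between genotypes. The pair was picked after all 45 were seen, so it was not tested. In 28 of the 45 the groups did not overlap. These pairs share the same 10 genes, and no share over other gene pairs was computed beside them.

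Btla, an inhibitory receptor of lymphocytes that binds HVEM, was the most abundant of the 13 T cell checkpoint receptors as CPM, at 71.7 and 56.7 CPM in WT against 46.8 and 31.1 CPM in the knockouts (log2 fold change -0.73, SE 0.22, edgeR adjusted p = 0.401). Tnfrsf14, which encodes HVEM, had 33.4 and 29.6 CPM in WT against 33.2 and 30.7 CPM in the knockouts (0.02, SE 0.16). Btla is also a B cell gene, and 10 of the 13 B cell and plasma cell markers had both knockout libraries below both WT libraries, against 22.7% of all tested genes. The part of B cells in its values was not tested.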
